A study of Mus musculus with 12 samples.

Results

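The genes described here are the ligands and receptors of the VEGF and angiopoietin systems in mouse kidney cortex: the ligands Vegfa, Vegfb, Vegfc and Pgf, their receptors Flt1, Kdr and Flt4, the angiopoietins Angpt1 and Angpt2, and the angiopoietin receptor Tek. They were taken by gene symbol, matched to the Ensembl identifiers of the deposited read counts, and all 10 were found among the 37681 genes and passed the filter on low counts. RNA was sequenced from TRACK mice, which carry the TRACK/gamma-HIF1alphaM3 transgene (TG+), and from littermates without it (TG-). The transgene is a mutated, constitutively active form of HIF1alpha driven by the gamma-glutamyl transferase promoter in proximal tubule cells, so by design endothelial cells do not express it. All animals were untreated 18-month-old males on the C57BL/6 background, and both genotypes thus differ in the transgene alone by their labels. There were 3 TG+ mice (43-29, 43-49 and 43-75) and 3 TG- mice (43-26, 43-50 and 43-76), with 1 library from each of the 2 kidneys of a mouse, 12 libraries in all. The sample is a thin outer slice of cortex that holds tubules, glomeruli, capillaries and other cells together, and in such bulk RNA fewer cells of a type and less RNA per cell cannot be told apart.

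VEGF-A is secreted in the kidney mainly by podocytes and tubule cells and acts on nearby endothelial cells. KDR (VEGFR2) carries most of its signal, FLT1 (VEGFR1) binds it tightly and, also as a soluble form, limits it, and FLT4 (VEGFR3) is the receptor of VEGF-C. Angiopoietin 1 activates the endothelial receptor TEK (TIE2) and keeps capillaries stable, whereas angiopoietin 2, released by endothelial cells, often opposes it. Vegfa is a classical target gene of hypoxia-inducible factors, and Flt1, Angpt2 and Tek have also been described as responsive to hypoxia.

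Total counts per mouse lay between 48052131 and 60506785 reads. Mice and not libraries were the replicates, since the genotype belongs to the animal and both kidneys share it. Levels are CPM, the reads of a gene per 1e6 reads after normalization of each mouse's total, and they are listed for the mice in the order given above. Hif1a, the mouse counterpart of the transgene, was at 91.7, 109.0 and 86.3 CPM in the TG+ mice and at 107, 103 and 103 CPM in the TG- mice. The groups overlapped (log2 fold change -0.12, SE 0.09, edgeR's adjusted p = 0.343), and as the transgene has no row of its own, and Hif1a overlaps Gm15283, this level does not check the genotype labels.

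Among the 10 genes, 6 rose in TG+ kidney cortex: Vegfa, Flt1, Kdr, Flt4, Angpt2 and Tek. The call is an adjusted p below 0.01 in edgeR's quasi-likelihood test on the summed counts of 3 TG+ and 3 TG- mice, with Benjamini-Hochberg adjustment over the 19399 genes tested. Of all genes tested, 12.2% passed this test, 7.91% (1534) as higher and 4.25% (824) as lower in TG+. Scaled by library size alone, 2257 were higher and 398 lower, and each of the 6 genes kept its call. Their 10 log2 fold changes had a median of 0.71, against 0.01 for all genes tested. None of the 6 reached the study's limit of a fold change above 2 together with an adjusted p below 0.01, which 3.98% of genes tested passed, 3.77% as higher and 0.211% as lower. By DESeq2 the same limit was passed by 0 of the 10 (4.47% of genes tested). In edgeR's fit 1, Pgf, had a fold change above 2 with an unadjusted p under 0.05 (6.22% of genes tested, counting folds below 0.5 too). At an adjusted p below 0.05, 7 of the 10 were higher, against 15.4% of genes tested. In 7 genes every TG+ mouse lay above every TG- mouse, and in 2, Vegfb and Vegfc, below, orders that 23.4% and 20.8% of genes tested showed.

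**Figure D1:**
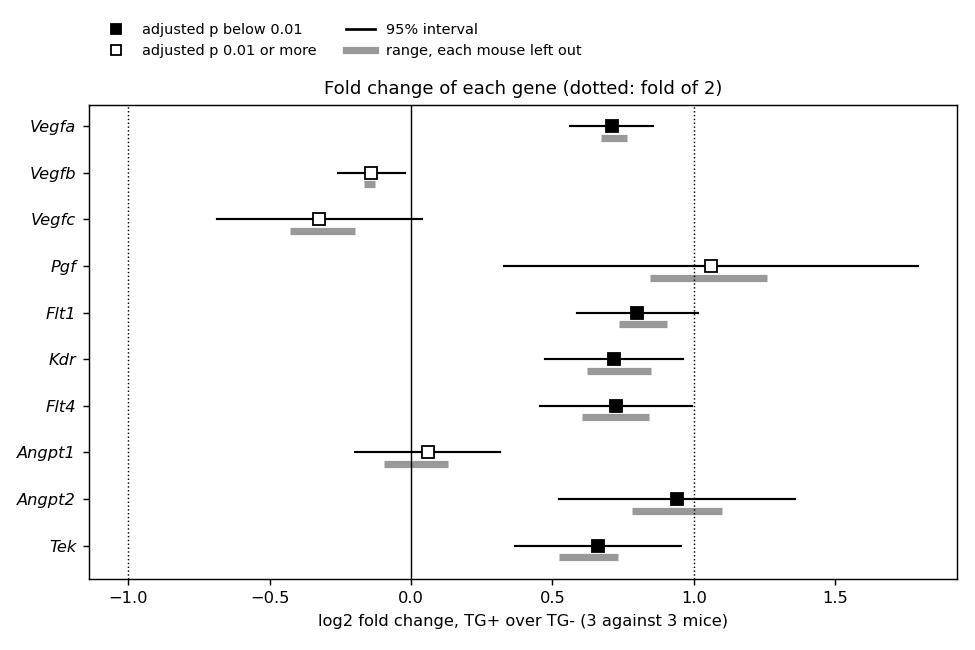
Log2 fold change (TG+ over TG-) of the 10 genes on the horizontal axis, with squares for the estimates of edgeR's fit on 3 against 3 mice (filled where the adjusted p was below 0.01), black lines for their 95% intervals, grey bars for the range of estimates with each mouse left out, and dotted lines at a fold of 2. The intervals of Vegfa, Flt1, Kdr, Flt4, Angpt2, Tek and also Pgf lie above 0, those of Angpt1 and Vegfc span 0, and that of Vegfb lies just below 0.

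To compare levels between genes, the RPKM values deposited by the authors, which divide by gene length, were averaged over the kidneys of each mouse. In TG- mice the order by RPKM was Vegfb at 15.6 ± 0.444 (SD, n = 3), Vegfa at 9.85 ± 0.688, Kdr at 5.95 ± 0.897, Angpt1 at 5.04 ± 0.10, Flt1 at 4.34 ± 0.505, Tek at 2.00 ± 0.228, Vegfc at 1.43 ± 0.112, Flt4 at 1.26 ± 0.199, Angpt2 at 0.601 ± 0.133 and Pgf at 0.221 ± 0.0563. Only Vegfc and Flt4 overlapped among neighbours in that order. In TG+ mice Vegfa came first, at 15.7 ± 0.343 RPKM, followed by Vegfb at 13.8 ± 0.300 RPKM, and these 2 did not overlap in either genotype. Flt1, at 7.36 ± 0.413 RPKM, stood above Angpt1, at 5.12 ± 0.867 RPKM, where in TG- mice it stood below. Angpt2 at 1.11 ± 0.122 RPKM and Vegfc at 1.10 ± 0.198 RPKM overlapped in TG+ mice.

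The bases before the transcription start are shown for 3 receptors that rose together and for the ligands Vegfa, which rose, and Vegfb, which did not pass the test, because the transgene encodes a factor that binds DNA at a short core. The sequences are the 250 bases before the RefSeq start on build GRCm38.p6, written 5′ to 3′ on the strand of the gene, and capitals mark ACGTG or GCGTG, the core of the hypoxia response element, read on either strand (on the other strand as CACGT or CACGC).
Kdr, chr5:75978456-75978705, minus strand: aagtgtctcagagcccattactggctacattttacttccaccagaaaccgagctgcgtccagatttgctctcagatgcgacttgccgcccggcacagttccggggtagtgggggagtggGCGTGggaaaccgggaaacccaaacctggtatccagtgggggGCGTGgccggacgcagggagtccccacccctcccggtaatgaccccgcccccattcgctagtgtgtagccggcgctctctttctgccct
Flt1, chr5:147726012-147726261, minus strand: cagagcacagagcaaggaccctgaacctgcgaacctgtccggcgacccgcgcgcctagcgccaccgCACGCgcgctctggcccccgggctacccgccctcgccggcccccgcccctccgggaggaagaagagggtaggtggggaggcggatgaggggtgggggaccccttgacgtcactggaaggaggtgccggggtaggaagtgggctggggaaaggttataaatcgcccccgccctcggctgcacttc
Tek, chr4:94739039-94739288, plus strand: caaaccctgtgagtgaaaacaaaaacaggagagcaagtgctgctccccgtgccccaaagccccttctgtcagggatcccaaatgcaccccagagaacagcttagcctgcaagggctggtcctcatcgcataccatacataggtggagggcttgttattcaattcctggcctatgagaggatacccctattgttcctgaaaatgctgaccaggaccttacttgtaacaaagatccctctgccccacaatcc
Vegfa, chr17:46032378-46032627, minus strand: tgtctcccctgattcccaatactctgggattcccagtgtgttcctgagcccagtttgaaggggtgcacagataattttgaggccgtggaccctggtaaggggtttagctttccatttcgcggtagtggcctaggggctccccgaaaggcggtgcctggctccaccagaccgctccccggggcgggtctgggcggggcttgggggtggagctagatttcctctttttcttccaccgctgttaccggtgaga
Vegfb, chr19:6987652-6987901, minus strand: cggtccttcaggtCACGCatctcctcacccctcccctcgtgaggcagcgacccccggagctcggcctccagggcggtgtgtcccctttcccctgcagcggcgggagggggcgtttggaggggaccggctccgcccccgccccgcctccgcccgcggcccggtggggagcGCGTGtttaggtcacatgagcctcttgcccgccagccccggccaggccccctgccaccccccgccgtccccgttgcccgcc
The Kdr window held 2 cores, 131 and 89 bases before the start, and the Flt1 window held 1, on the other strand, 184 bases before the start. The Vegfb window also held 2 cores, 237 and 81 bases before the start, although Vegfb did not pass the test. No core was in the Tek window or in this Vegfa window, which says only that these letters are not in these 250 bases. RefSeq holds another Vegfa window, at chr17:46025164-46025413, with 2 cores 218 and 211 bases before its start, a start that matched no transcript start of GENCODE M21. Of all 32851 windows of this length in the RefSeq set, 38.6% held ACGTG or GCGTG on either strand, 16.6% the first and 28.2% the second, so a match is common. RefSeq windows were matched for 8 of the 10 genes, 10 windows in all, and 5 of those held a core. The cores of these windows are matches of letters and were not measured as bound sites.

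Vegfa (ENSMUSG00000023951, chromosome 17 from 46016993 to 46032369, minus strand, positions here and below from GENCODE M21 on GRCm38) was at 389, 399 and 382 CPM in the TG+ mice and at 226, 257 and 232 CPM in the TG- mice. The genotypes were far apart and each was tight, at 389.8 ± 8.70 and 238 ± 16.6 CPM (SD, n = 3). This was a log2 fold change of 0.71 (SE 0.06, 95% interval 0.56 to 0.86, 1.64-fold, edgeR's adjusted p = 0.000291). All 6 TG+ libraries, between 350.3 and 412 CPM, lay above the TG- libraries, between 224 and 261 CPM. Vegfa kept its call when any of the 6 mice was left out, at log2 fold changes of 0.67 to 0.77 and adjusted p of at most 0.00329 by edgeR.

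Vegfb, whose product binds FLT1 and is best known from heart and muscle (ENSMUSG00000024962, chromosome 19 from 6982473 to 6987651, minus strand), was at 40.3, 41.6 and 40.0 CPM in TG+ and at 43.3, 45.3 and 45.8 CPM in TG- mice. The groups did not overlap, with the TG+ mice lower, but the difference was small. The log2 fold change was -0.14 (SE 0.05, 95% interval -0.26 to -0.02), and it did not pass the test (edgeR's adjusted p = 0.0792). Scaled by library size alone, it was -0.02 (adjusted p = 0.816 by edgeR). Vegfc, the ligand of FLT4 that drives lymphatic growth (ENSMUSG00000031520, chromosome 8 from 54077606 to 54187096, plus strand), was at 2.30, 3.12 and 3.25 CPM in TG+ and at 3.35, 3.87 and 3.64 CPM in TG- mice. Its TG+ mice were also below its TG- mice, by a gap of less than the range within TG+. The log2 fold change of -0.32 (SE 0.16, 95% interval -0.69 to 0.04) did not pass the test (edgeR's adjusted p = 0.166), and it was -0.20 without 43-29 or scaled by library size alone, -0.14 with kidney 1 only and -0.50 with kidney 2 only.

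Pgf, placental growth factor, a ligand of FLT1 but not of KDR (ENSMUSG00000004791, chromosome 12 from 85166635 to 85177790, minus strand), was the scarcest of the 10 genes. It had 22, 44 and 36 reads in the TG+ mice and 17, 22 and 10 reads in the TG- mice, and a single library held as few as 2. In CPM these were 0.445, 0.776 and 0.717 in TG+ and 0.331, 0.385 and 0.205 in TG-. The TG+ mice lay above the TG- mice, but the lowest TG+ mouse and the highest TG- mouse had the same 22 reads and were apart only after scaling. Its log2 fold change was 1.06 (SE 0.32, 95% interval 0.33 to 1.79), the largest of the 10 and the least precise, and it did not pass the test at 0.01 (edgeR's adjusted p = 0.0426).

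**Figure D2:**
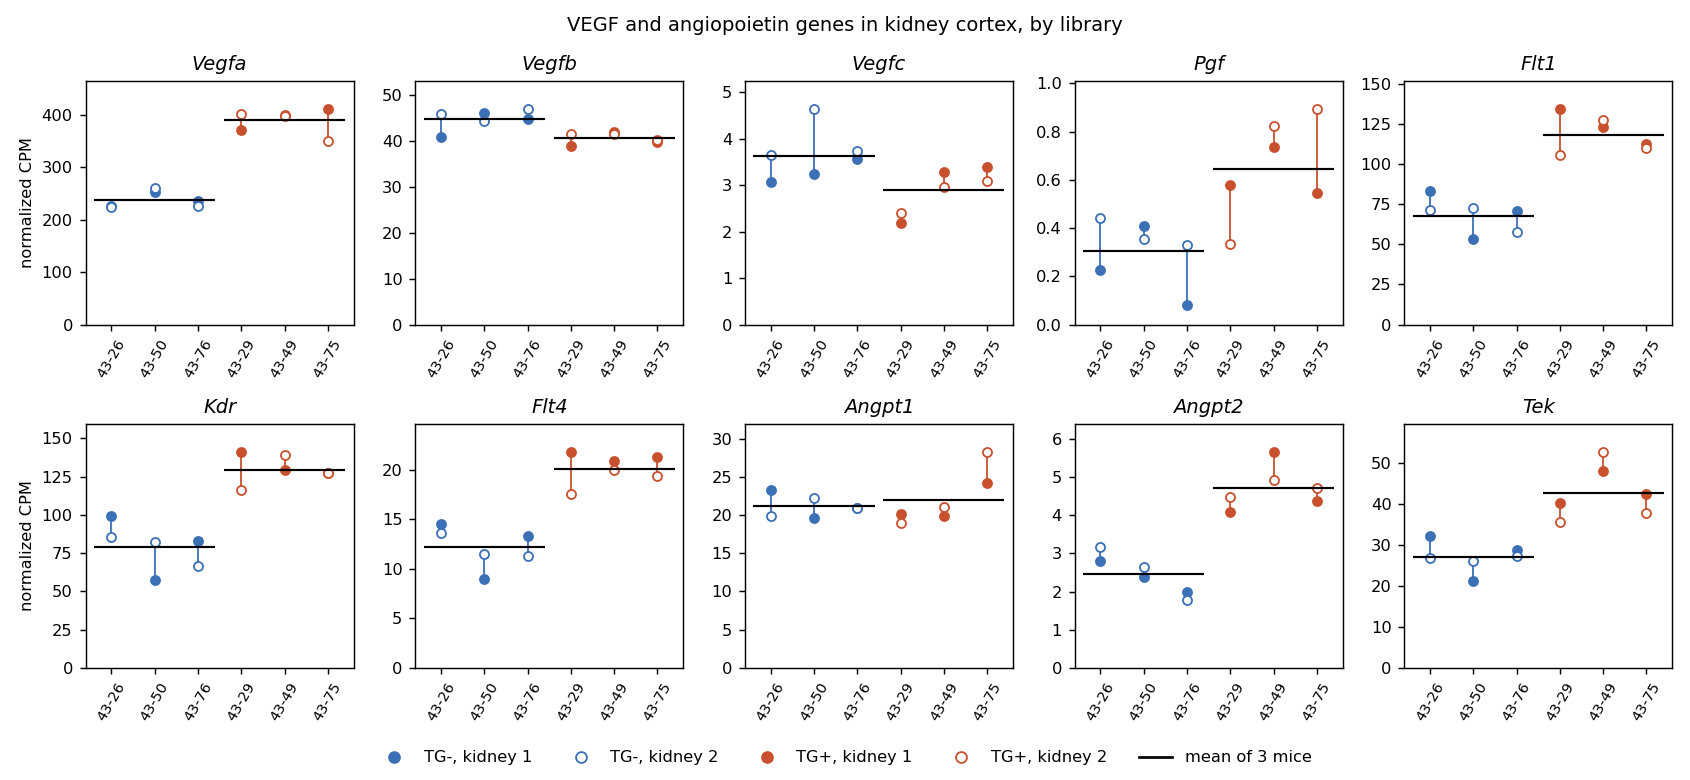
Normalized CPM (vertical axis from 0, own scale for each gene) of the 10 genes in each of the 6 mice (horizontal axis), with filled points for kidney 1, open points for kidney 2, a line joining the kidneys of a mouse, blue for TG-, red for TG+ and black bars for the mean of 3 mice. All TG+ points lie above all TG- points for Vegfa, Flt1, Kdr, Flt4, Angpt2 and Tek, and the genotypes overlap for Angpt1, while for Pgf the kidneys are far apart in 4 mice and close in 43-49 and 43-50.

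Flt1 (ENSMUSG00000029648, chromosome 5 from 147561604 to 147726011, minus strand) was at 118, 125 and 111 CPM in TG+ and at 77.4, 61.8 and 64.3 CPM in TG- mice. The lowest TG+ mouse was well above the highest TG- mouse, 43-26. Its log2 fold change was 0.80 (SE 0.09, 95% interval 0.59 to 1.01, 1.74-fold, edgeR's adjusted p = 0.000931). As with Vegfa, its call held without any of the 6 mice, at log2 fold changes of 0.74 to 0.90 and adjusted p of at most 0.00703 by edgeR. The counts do not separate the soluble from the membrane-bound form.

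Kdr (ENSMUSG00000062960, chromosome 5 from 75932827 to 75978458, minus strand) was at 127, 134 and 127 CPM in TG+ and at 92.8, 68.5 and 75.0 CPM in TG- mice. The TG+ mice were nearly equal, and the spread lay in the TG- mice, with 43-26 highest here too. Kdr rose by 0.72 on the log2 scale (SE 0.11, 95% interval 0.47 to 0.96, 1.64-fold, edgeR's adjusted p = 0.00269). Without 43-49, 43-75 or 43-76 the adjusted p of Kdr by edgeR was 0.0103, 0.0116 and 0.0163, and the call was lost, at log2 fold changes of 0.69, 0.72 and 0.68, and with kidney 1 only it was lost too (0.74, adjusted p = 0.0184).

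Flt4 (ENSMUSG00000020357, chromosome 11 from 49609263 to 49652739, plus strand) is known from lymphatic vessels and is also present in fenestrated capillaries. It was at 19.5, 20.5 and 20.3 CPM in TG+ and at 14.1, 10.1 and 12.3 CPM in TG- mice. The genotypes did not overlap, and 43-50 was the lowest, as for Flt1 and Kdr. Flt4 rose by 0.73 on the log2 scale (SE 0.12, 95% interval 0.46 to 0.99, 1.65-fold, edgeR's adjusted p = 0.0038). The call was lost without 43-29, 43-49, 43-75 or 43-76, at log2 fold changes of 0.70 to 0.74 and an adjusted p of up to 0.0186 by edgeR, and with kidney 1 only (0.81, adjusted p = 0.011). Of the lymphatic markers, 4 of 5 were analysed here, and 1, Reln, rose (1.18 CPM in TG- and 3.82 in TG+, log2 fold change 1.69, edgeR's adjusted p = 0.000128), while Pdpn, the most abundant, was at 5.61 and 5.98 CPM and Lyve1 overlapped, at 0.121, 1.11 and 2.35 CPM in TG+ mice against means of 0.164 in TG- and 1.19 in TG+ (edgeR's adjusted p = 0.0698). The sum of the 4 ranged from 9.58 to 11 CPM in TG- and from 13.4 to 16.6 CPM in TG+ mice, and its part in the rise of Flt4 was not tested.

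Angpt1 (ENSMUSG00000022309, chromosome 15 from 42424723 to 42676977, minus strand), made in the kidney by cells around capillaries, was at 19.5, 20.3 and 26.2 CPM in TG+ and at 21.7, 20.8 and 20.9 CPM in TG- mice. The groups overlapped, and 43-75 stood above the other TG+ mice. The log2 fold change was 0.06 (SE 0.11, 95% interval -0.20 to 0.31, edgeR's adjusted p = 0.738), an interval that spans both directions. Without 43-75 the log2 fold change was -0.10 (edgeR's adjusted p = 0.386). Angpt1 overlaps the antisense gene Gm17473, whose reads may be counted with it.

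Angpt2 (ENSMUSG00000031465, chromosome 8 from 18690263 to 18741562, minus strand) was at 4.31, 5.31 and 4.54 CPM in TG+ and at 2.98, 2.5 and 1.88 CPM in TG- mice. The genotypes did not overlap, although the level was low, between 92 and 301 reads per mouse. Angpt2 rose by 0.94 on the log2 scale (SE 0.18, 95% interval 0.52 to 1.36, 1.92-fold, edgeR's adjusted p = 0.00793). The call was lost without any mouse other than 43-26, at log2 fold changes of 0.78 to 0.99 and an adjusted p of up to 0.0271 by edgeR, and with kidney 2 only (0.90, adjusted p = 0.0136). Angpt2 lies within Mcph1, a gene on the other strand at 4.62 CPM in TG+ and 4.79 CPM in TG- mice (log2 fold change -0.05, edgeR's adjusted p = 0.769), and reads of the 2 genes may not have been told apart.

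Tek (ENSMUSG00000006386, chromosome 4 from 94739289 to 94874976, plus strand) was at 37.7, 50.1 and 40.1 CPM in TG+ and at 29.6, 23.3 and 28.1 CPM in TG- mice. Here 43-49 stood above the other TG+ mice, and the groups did not overlap. Tek rose by 0.66 on the log2 scale (SE 0.13, 95% interval 0.37 to 0.95, 1.58-fold, edgeR's adjusted p = 0.00796). The call was lost without any mouse other than 43-29, at log2 fold changes of 0.52 to 0.73 and an adjusted p of up to 0.0286 by edgeR. It was also lost with kidney 1 only (0.68, adjusted p = 0.0139) and with kidney 2 only (0.66, adjusted p = 0.0109), both by edgeR. The same held with the pairs in the name of the deposited table as a replicate block (0.66, edgeR's adjusted p = 0.0158). For each of the 10 genes but Angpt1 (p = 1.0), the exact 2-sided permutation test, with 20 ways to assign the genotypes, gave p = 0.1, the smallest it can give.

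The 2 kidneys of a mouse showed how far the receptors varied together. In 43-50 Kdr was at 57.6 CPM in kidney 1 and 82.0 CPM in kidney 2, a log2 difference of -0.51, and Flt1 was at 53.4 and 72.3 CPM (-0.44). Flt4 (-0.37) and Tek (-0.29) were also lower in kidney 1 of that mouse, and so was the summed CPM of 12 endothelial marker genes (-0.25). Vegfa was not, at 253 and 261 CPM (-0.05). In 43-29 Kdr, Flt1, Flt4 and Tek were higher in kidney 1, by 0.28, 0.35, 0.31 and 0.18 on the log2 scale, and in 43-76 by 0.31, 0.29, 0.25 and 0.08. In 43-26 they were higher by 0.21, 0.23, 0.10 and 0.26, so these 4 receptors leaned the same way within each of these mice. The endothelial sum differed by 0.09 in 43-29, 0.11 in 43-76 and 0.17 in 43-26. In 43-49 and 43-75 the 4 receptors stayed between -0.13 and 0.17, and in 43-49 Flt4 (0.06) went against Kdr (-0.10) and Tek (-0.13). Over the 12 libraries, Pearson's r of log2 CPM was 0.991 between Kdr and Flt1, 0.983 between Kdr and Flt4 and 0.931 between Kdr and Tek, and for Angpt1 it was between -0.41 and 0.263 with the other 9 genes. These correlations are a description, since the libraries share the genotype difference and come as 2 kidneys of each mouse. On the log2 scale, the SD between single kidneys of a mouse was 0.20 for Kdr and 0.19 for Flt1. The SD between mice of a genotype, taken on the mean of the 2 kidneys of each mouse, was 0.16 and 0.13. A mean of 2 kidneys varies less than a single kidney, so these SDs are not like for like. For Vegfa both were near 0.08, and for Angpt2 they were 0.11 between kidneys and 0.26 between mice. For Pgf the SD between kidneys was 0.72.

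**Figure D3:**
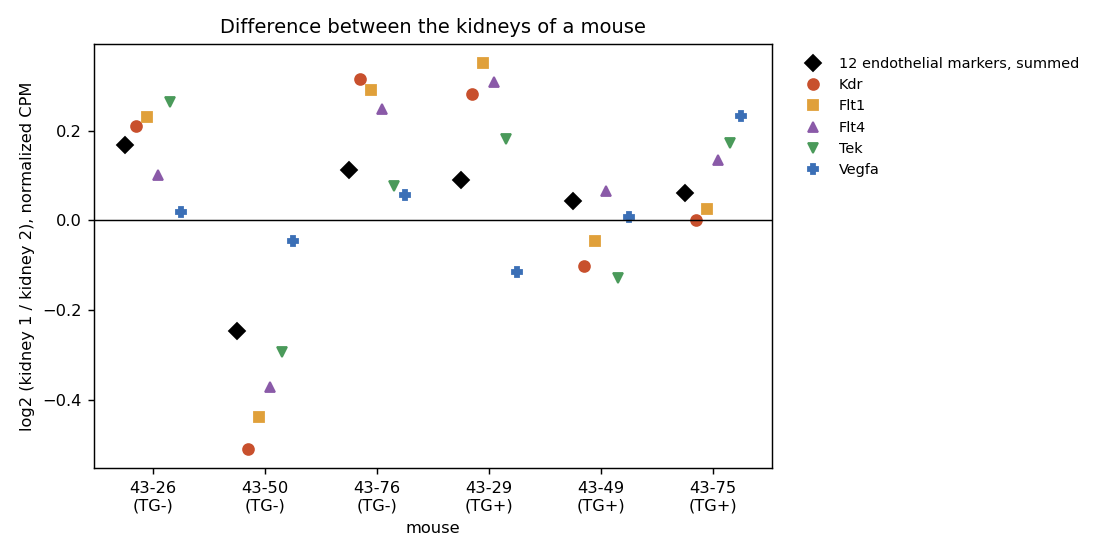
Log2 ratio of CPM in kidney 1 to kidney 2 (vertical axis) in each of the 6 mice (horizontal axis), with a symbol for each of Kdr, Flt1, Flt4, Tek, Vegfa and the summed 12 endothelial markers. In 43-50 Kdr, Flt1, Flt4 and Tek lie well below 0 together with the endothelial sum, while Vegfa stays between -0.11 and 0.23 in all mice.

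The genes whose log2 CPM most resembled that of Kdr over the 12 libraries, among genes tested with at least 5 CPM, were Btnl9 (r = 0.997), Flt1 (0.991), Klf7 (0.986), Arhgap31 (0.986) and Tlr4 (0.984). Btnl9 was at 42.8 CPM in TG+ and 22.0 CPM in TG- mice. For Vegfa they were Reep6 (r = 0.993), Slc20a1 (0.989), Pfkfb3 (0.989), Mast3 (0.988) and Dhx29 (0.987), of which Pfkfb3, an enzyme that raises the glycolytic activator fructose-2,6-bisphosphate, was at 33.2 CPM in TG+ and 6.51 CPM in TG- mice. The 2 sets had no gene in common, but sets of 5 among so many genes cannot show whether Vegfa and Kdr vary apart. Between Vegfa and Kdr themselves r was 0.83.

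Endothelial markers moved with the receptors. The summed CPM of the 12 markers (Pecam1, Cdh5, Emcn, Eng, Esam, Cldn5, Egfl7, Ehd3, Plvap, Vwf, Icam2 and Sox17, all detected) ranged from 636 to 676 in TG+ and from 388 to 498 in TG- mice, a log2 ratio of the means of 0.56. Of these 12 genes 7 rose, against 7.91% of all genes tested, and the median log2 fold change of the 12 was 0.59. Eng, the most abundant, was at 161 and 118 CPM (log2 fold change 0.44) and did not pass the test (edgeR's adjusted p = 0.013). The log2 fold changes of the 12 ranged from 0.24 for Cldn5 to 0.775 for Emcn. Emcn and also Pecam1, at 0.71, were thus near Kdr and Flt4. To set the endothelial genes against this sum, each was expressed as a percent of it within each mouse. Kdr made up 20%, 19.8% and 19.3% of the sum in TG+ and 18.6%, 17.7% and 16.7% in TG- mice. Flt1 stood at 18.6%, 18.5% and 16.9% in TG+ and at 15.6%, 15.9% and 14.3% in TG- mice. Relative to the sum both were therefore higher in every TG+ mouse, but by log2 differences of only 0.16 for Kdr and 0.24 for Flt1. The sum gives most weight to its abundant genes, Eng above all. With each marker left out of the sum, the differences ranged from 0.12 to 0.18 for Kdr and from 0.19 to 0.26 for Flt1. They were lowest without Eng and highest without Emcn. Flt4 was at 3.06% ± 0.0279 and 2.72% ± 0.117 of the sum (SD, n = 3, log2 difference 0.17), and Angpt2 at 0.717% ± 0.0596 and 0.554% ± 0.120 (0.39), again without overlap. Without Eng in the sum the log2 differences were 0.13 for Flt4 and 0.35 for Angpt2. Without 43-76 the log2 difference of Angpt2 was 0.20. In single kidneys the genotypes overlapped for Kdr in both kidneys (exact permutation p = 0.2), for Flt1 and Flt4 in kidney 2 (p = 0.2, log2 difference of Flt4 0.11) and for Angpt2 in kidney 1 (p = 0.3). Tek, at 5.92%, 7.42% and 6.09% in TG+ and 5.94%, 6.02% and 6.23% in TG- mice, overlapped (log2 difference 0.09). In the exact 2-sided permutation test Kdr, Flt1, Flt4 and Angpt2 each gave p = 0.1, the smallest possible with 3 against 3 mice (0.18 after Benjamini-Hochberg adjustment over 9 ratios), and Tek gave p = 0.7. How much of the rise of each receptor belongs to the level of endothelial RNA as a whole was not tested beyond these ratios.

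**Figure D4:**
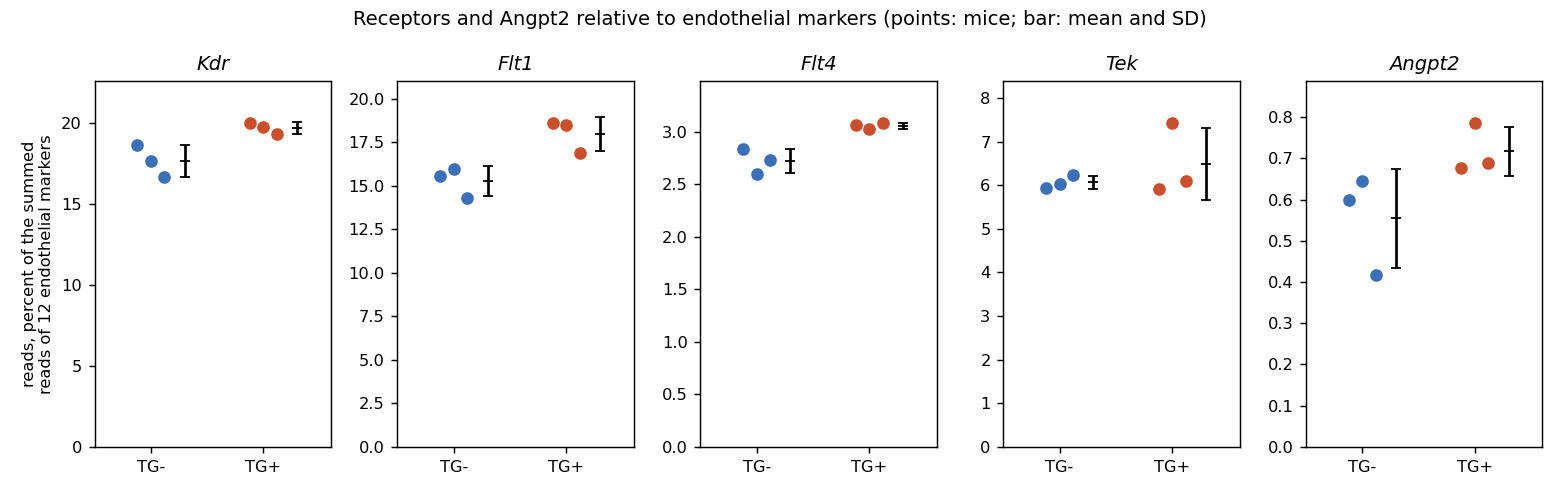
Reads of Kdr, Flt1, Flt4, Tek and Angpt2 as a percent of the summed reads of 12 endothelial markers (vertical axis from 0, own scale for each gene), with a point for each of 3 TG- and 3 TG+ mice (horizontal axis) and bars for the mean and SD. The TG+ points lie above the TG- points for Kdr, Flt1, Flt4 and Angpt2 and overlap them for Tek.

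Ratios between members compare ligand with ligand and receptor within a mouse and do not depend on the scaling. The ratio of Angpt2 to Angpt1 CPM was 0.221, 0.261 and 0.174 in TG+ and 0.138, 0.121 and 0.0901 in TG- mice. It was higher in all TG+ mice, by 0.91 on the log2 scale (exact permutation p = 0.1, the smallest possible, adjusted p = 0.18). The ratio of Vegfa to Kdr was 3.05, 2.98 and 3.0 in TG+ and 2.44, 3.75 and 3.09 in TG- mice, so that the TG+ mice lay inside the range of the TG- mice (log2 difference -0.02, exact permutation p = 0.7). Flt1 to Kdr was 0.930, 0.935 and 0.873 against 0.835, 0.902 and 0.858 (0.08, exact permutation p = 0.2), and Tek to Kdr was 0.296, 0.375 and 0.315 against 0.319, 0.341 and 0.374 (-0.07, exact permutation p = 0.6, and between -0.17 without 43-49 and -0.0009 without 43-29). For these 3 ratios the groups overlapped.

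The same question was put to 64 further genes of the pathways, in 4 lists. Of the 64, 17 passed the test, all 17 higher in TG+, where 7.91% of all genes tested were higher and 4.25% lower. These shares also apply to the edgeR count of every single pathway or marker list here. The median log2 fold change of all 64 was 0.41. By DESeq2, 27 were higher and 3 lower, where 11.2% of all genes tested were higher and 8.24% lower by that tool. The study's limit of a 2-fold change was passed by 3, Apln, Plaur and Hspb1, a share of the 64 near the 3.98% of all genes tested.

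Among 10 further ligands, co-receptors and TIE partners, 5 rose (median log2 fold change 0.47). Nrp2, a co-receptor for VEGF-C and VEGF-A, was at 25.5, 30.2 and 30.5 CPM in TG+ and at 16.3, 13.6 and 15.3 CPM in TG- mice (log2 fold change 0.93, SE 0.10, edgeR's adjusted p = 0.000576). Angptl6, a secreted angiopoietin-like protein, rose by 0.79 on the log2 scale (edgeR's adjusted p = 0.00545). Tie1, the partner of TEK, Angptl1 and Angptl2 were the others past the test, by 0.70, 0.72 and 0.44. Nrp1, the co-receptor of KDR, was at 164 ± 25 CPM in TG+ and 126 ± 11 CPM in TG- mice (log2 fold change 0.38) and did not pass (edgeR's adjusted p = 0.0438). Vegfd, the other ligand of FLT4, was at 10.1 ± 2.11 and 9.53 ± 0.740 CPM, overlapping.

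Among 28 genes of the signal inside the cell, 5 rose (median 0.09). At an unadjusted p under 0.05, 12 were higher and 4 lower, 16 in all, where 39.1% of all genes tested had such a p, 21.9% as higher and 17.2% as lower. Nos3, the endothelial nitric oxide synthase, was at 11.9, 12.3 and 12.3 CPM in TG+ and at 7.04, 5.85 and 6.43 CPM in TG- mice (log2 fold change 0.92, SE 0.09, edgeR's adjusted p = 0.000392). Hspb1, a small heat shock protein phosphorylated downstream of KDR and made by many cell types, was at 2.36 and 1.15 CPM (1.03, edgeR's adjusted p = 0.00404). Map2k1, Mapkapk2 and Pik3r1, which many receptors use, rose by 0.41, 0.39 and 0.36. Prkca was lower in all TG+ mice, at 22.4 against 30.6 CPM (-0.45), without passing (edgeR's adjusted p = 0.0152).

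Of 16 genes known from endothelium activated by VEGF, 5 rose (median 0.52). Apln, the peptide ligand of the apelin receptor and a gene of sprouting endothelial tip cells, was at 60.2, 46.3 and 64.0 CPM in TG+ and at 8.48, 9.02 and 10.4 CPM in TG- mice. No TG- mouse came near the lowest TG+ mouse, and the log2 fold change of 2.61 (SE 0.14, 6.13-fold, edgeR's adjusted p = 2.13e-05) was larger than that of any of the 10 ligands and receptors. Plaur, the urokinase receptor, rose by 1.21 (5.23 against 2.26 CPM, edgeR's adjusted p = 0.0038). Robo4, Cxcr4 and Pdgfb rose by 0.66, 0.68 and 0.39. Aplnr, the receptor of apelin, was at 10.3 and 4.96 CPM (1.06) and did not pass at 0.01 (edgeR's adjusted p = 0.0147).

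Of 10 secreted or matrix inhibitors of angiogenesis, 2 rose (median 0.39). Sema3f, which binds NRP2 and repels endothelial cells, was at 31.8, 28.6 and 28.3 CPM in TG+ and at 18.2, 13.6 and 15.1 CPM in TG- mice (log2 fold change 0.92, edgeR's adjusted p = 0.00114). Vash1, an inhibitor made by endothelium, rose by 0.61 (edgeR's adjusted p = 0.00844). Timp3, an inhibitor of metalloproteinases that also blocks VEGF-A from KDR, was abundant and lower in every TG+ mouse, at 3110 against 4091 CPM (-0.40), but did not pass (edgeR's adjusted p = 0.0145).

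**Figure D5:**
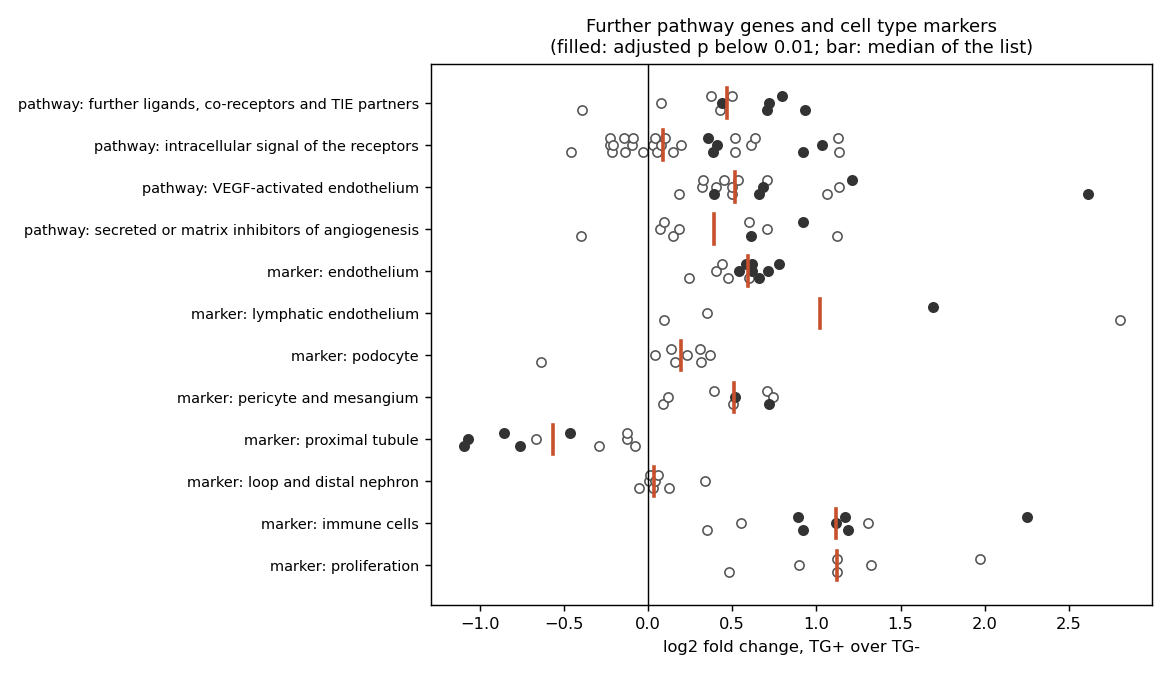
Log2 fold change (TG+ over TG-, horizontal axis) of each of the 64 further pathway genes and of the marker genes, in a row for each list, with points filled where edgeR's adjusted p was below 0.01 and a red bar at the median of the list. Apln, at 2.61, is the highest point of the 4 pathway lists, and the proximal tubule points lie below 0.

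Other cell types moved with the genotype as well. The proximal tubule markers, which mark the cells that express the transgene by design, summed to between 26765 and 30118 CPM in TG+ and between 37109 and 39457 CPM in TG- mice, and 5 of 10 fell, with Slc22a6 (log2 fold change -1.09) and Cyp4b1 (-1.07) past the study's limit, while Kap, the most abundant, was at 16181 and 17074 CPM. The podocyte markers, of cells that secrete VEGF-A, summed to 610 to 710 CPM in TG+ and 471 to 588 CPM in TG- mice. In that list 0 of 8 passed in edgeR's quasi-likelihood test, 1 passed by DESeq2 and 4, all higher, had an unadjusted p under 0.05, against 21.9% of all genes tested that were higher at that p, and Podxl, the most abundant, was at 346 and 268 CPM. Of 8 pericyte and mesangium markers 2 rose, with sums of 324 to 402 CPM in TG+ and 247 to 287 CPM in TG- mice, and Ren1, the most abundant over both genotypes together, was at 76.2 and 70.1 CPM (log2 fold change 0.12, edgeR's adjusted p = 0.762), while Rgs5, the most abundant in TG+ mice, rose from 54.0 to 89.0 CPM (0.72, edgeR's adjusted p = 0.00353). Of 9 immune markers 6 rose, among them Cd79a (2.25), Cd4 (1.19), Cd3e (1.17) and Itgax (1.12) past the study's limit, and the sums of 78.1 to 84.0 CPM in TG+ and 36.2 to 55.8 CPM in TG- mice did not overlap (C1qa, the most abundant over both genotypes together, 25.1 and 17.1 CPM, did not pass, and Ptprc, the most abundant in TG+ mice, rose from 13.8 to 26.1 CPM). The proliferation markers summed to 13.2 to 26.0 CPM in TG+ and 7.17 to 10.3 CPM in TG- mice, with 0 of 6 past the test by edgeR, 3 by DESeq2 and 5, all higher, at an unadjusted p under 0.05, beside the same 21.9% (Mki67, 8.70 and 4.0 CPM). The loop and distal nephron markers overlapped, at 4859 to 6923 and 5457 to 5669 CPM, with 0 of 8 past the test by edgeR and by DESeq2 and 1, higher, at an unadjusted p under 0.05, beside the same 21.9% (Umod, 2019 and 1936 CPM). The part of these shifts in the levels of Vegfa, its receptors and the angiopoietins was not tested.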

How the data were processed

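The table that the authors deposited holds a read count per gene, without normalization, for each of 12 libraries, and RPKM values that the authors scaled from those counts after adding 1. Once a scaling factor for each library was removed, the ratio of count plus 1 to RPKM was constant between libraries within 0.1% for 37681 of 37681 genes. The submitters' processing notes name the genome build mm9, and reads were 51 bases long. For the sequencing as a whole the study's methods name the Tuxedo software; which program made the counts, its annotation and its use of strand are not given in the sources used here. The other 26 columns (log2 RPKM, group means, fold changes, test statistics, p- and q-values by the authors) were not used. Symbols were matched through GENCODE M21 for 32642 genes (86.6%), and positions are on GRCm38, not on the build of the counts.

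From the counts, both kidneys of a mouse were summed, genes were kept by filterByExpr, scaled by TMM (factors 0.944 to 1.07) and tested in R 4.3.3 with the quasi-likelihood test of edgeR 4.0.16 (limma 3.58.1 loaded), and p-values of the 19399 genes were adjusted by Benjamini-Hochberg. RPKM served only to compare levels between genes. Ratios were compared by an exact 2-sided permutation test over mice, enumerated in Python with numpy. Python 3.11.15, numpy 2.4.6, pandas 2.3.3 and matplotlib 3.10.9 were used. The fit was tested on simulated data with known changes. The genes and lists were chosen with earlier results of these data known. Named beside the 10 genes are, of the pathway lists, those past the study's limit and the 2 largest rises and falls past the test with at least 1 CPM; of marker lists, the most abundant gene and those past the limit; and the 5 genes most like Vegfa and Kdr. Others were named after their values were seen. Alternatives were DESeq2 1.42.0, no filter, upper-quartile scaling, library size alone, each kidney as its own library, kidney 1 or 2 only, a block for the pairs in the name of the deposited table, leaving out each mouse, and limits of 0.05 and 0.001.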

Additional observations from a re-analysis of the deposited data

How the results depend on the processing

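Vegfa and Flt1 passed the test under all 14 alternative fits. With kidney 1 only, Kdr (0.74), Flt4 (0.81) and Tek (0.68) kept their direction but did not pass, and with kidney 2 only, Angpt2 (0.90) and Tek (0.66) did not. The number of the 10 genes past the test was 6, against 3 with kidney 1 only, 4 with kidney 2 only, 7 at an adjusted p below 0.05, 2 at 0.001 and 2 to 5 with a mouse left out (2 without 43-49, 43-75 or 43-76). With library size alone, or without 43-26, Angpt2 passed the study's limit as the single gene (log2 fold change 1.06 and 1.10), and 0 to 1 did so over the mice left out. The 17 pathway genes became 30 by DESeq2, 37 with each kidney as its own library, 34 at 0.05, 3 at 0.001 and 5 to 11 with a mouse left out. Without a mouse, log2 fold changes ranged from 0.62 to 0.85 for Kdr, 0.60 to 0.84 for Flt4, 0.78 to 1.10 for Angpt2, 0.52 to 0.73 for Tek and -0.10 to 0.13 for Angpt1. The direction turned for Angpt1 without 43-75 (-0.10), for Vegfa to Kdr without 43-50 (0.13, in a range from -0.18 over the mice left out) and for Tek to the endothelial sum without 43-49 (-0.015, in a range up to 0.15). The cause was not tested, though fewer mice or kidneys also mean fewer degrees of freedom or reads.

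Over all genes 2358 passed (1534 higher, 824 lower), against 3774 by DESeq2, 5992 with each kidney as its own library, 983 to 1663 with a mouse left out, and 2257 higher and 398 lower by library size alone, which moved the median of all genes to 0.13. The name of the deposited table lists the mice in pairs but does not call these litters. The study's methods call the TG- mice littermates without saying which mice belong together. Deviations of the mice of a pair from their genotype's mean correlated at 0.307, 0.283 and -0.06, so the numbers were not taken to pair the mice. With the pairs as a replicate block, 5 of the 10 genes passed, Tek (0.66, edgeR's adjusted p = 0.0158) no longer did, and 2561 genes passed in all. Depth limits Pgf, with as few as 10 reads in a mouse.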
